A study of Mus musculus with 10 samples.

Results

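The 10 genes described here encode the machinery by which cells display peptides on major histocompatibility complex (MHC) molecules. They were chosen by name, as rows of the deposited tables whose gene symbol was H2-Aa, H2-Ab1, H2-Eb1, H2-DMa, H2-DMb1, Cd74, Ciita, H2-K1, H2-D1 or B2m. They are 10 of 24358 gene symbols in the tables, and all 10 were among the 16083 genes with enough counts to be tested. RNA was sequenced from 10 full-thickness biopsies of dorsal skin from 5 C57Bl/6 mice, each of which gave 1 lesional and 1 uninvolved biopsy. The mice labelled IL-17C+KO (2392 and 2465) and IL-17C+ (2237, 2275 and 2296) were all transgenic for interleukin-17C (IL-17C), so no biopsy came from a mouse without the transgene. By the title of the series the gene knocked out is interleukin-6 (Il6). The promoter that drives the transgene is not given in the labels. The animals' age was either 10 or 14 weeks. The labels do not tie an age to a mouse, so age and genotype cannot be told apart.

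MHC class II molecules are pairs of an alpha and a beta chain. They carry peptides from engulfed proteins to CD4+ T cells and are made mainly by dendritic cells, Langerhans cells, macrophages and B cells, and by keratinocytes after exposure to interferon gamma. MHC class I molecules consist of a heavy chain and beta-2 microglobulin, carry peptides from the cell's own proteins to CD8+ T cells, and are made by nearly every nucleated cell. Ciita is the transactivator that turns on class II genes together with factors bound to the X and Y boxes of their promoters, and Nlrc5 is its counterpart at class I genes.

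Libraries held 21056850 to 31072491 counts, so an observed count of 0 allowed up to 3 counts, or 0.0965 to 0.142 CPM (counts scaled to a common library total). Keratinocyte and fibroblast markers were abundant in every library. The summed level of 7 keratinocyte genes was 15445 to 34034 CPM, and that of 6 fibroblast genes was 2399 to 29189 CPM. Il6, by its reads, did not follow the knockout label. It had 315 (2392) and 300 (2465) counts in lesional skin labelled IL-17C+KO, against 26 (2237), 18 (2275) and 69 (2296) counts in lesional IL-17C+ skin. In uninvolved skin it had 71 (2392) and 55 (2465) counts in the libraries labelled IL-17C+KO, against 9 (2237), 4 (2275) and 6 (2296) counts in IL-17C+ libraries. Every library labelled IL-17C+KO therefore held Il6 reads, more than its IL-17C+ counterparts. Counts over a whole gene do not show which exons were read, so every direction between genotypes below rests on the label. Il17c took a larger share of counts in lesional than in uninvolved skin in 4 of the 5 mice. Mouse 2237 was the exception, with 1.13% in lesional and 1.39% in uninvolved skin.

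Promoter sequences of 7 of the 10 genes were found in the RefSeq set (GRCm38.p6), as windows of 300 bases around an annotated start. No window is shown for H2-Ab1, Cd74 and Ciita. The windows of 1 class II alpha and 1 class II beta chain are shown because the boxes read by the Ciita complex lie in them. Capitals mark the X box core GCAAC and the Y box core ATTGG on either strand (ATTGG on the other strand reads CCAAT). The H2-Aa window is chr17:34287774-34288073 on the minus strand and the H2-Eb1 window is chr17:34305617-34305916 on the plus strand, both written 5′ to 3′ along the gene.
H2-Aa: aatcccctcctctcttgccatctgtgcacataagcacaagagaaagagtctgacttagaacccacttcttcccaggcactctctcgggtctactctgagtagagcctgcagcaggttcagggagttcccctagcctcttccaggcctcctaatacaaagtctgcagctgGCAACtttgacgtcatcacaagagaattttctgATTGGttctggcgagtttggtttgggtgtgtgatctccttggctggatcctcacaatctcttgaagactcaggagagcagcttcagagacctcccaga
H2-Eb1: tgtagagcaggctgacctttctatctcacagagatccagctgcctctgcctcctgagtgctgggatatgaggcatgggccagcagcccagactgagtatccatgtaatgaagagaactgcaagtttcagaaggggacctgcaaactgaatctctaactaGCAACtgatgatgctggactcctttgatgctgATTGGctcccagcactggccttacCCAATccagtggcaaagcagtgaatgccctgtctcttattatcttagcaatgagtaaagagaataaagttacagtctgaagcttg
In both windows GCAAC stood before ATTGG on the gene's strand, with 28 bases between them in H2-Aa and 27 in H2-Eb1. Alone, each core is common. GCAAC was found on either strand in 35.2% and ATTGG in 37.4% of 32851 promoter windows. GCAAC followed by ATTGG on the same strand with 25 to 30 bases between was found in 93 windows, which is 0.283%. That range takes in the 28 and 27 bases just given, so H2-Aa and H2-Eb1 were included in advance. The other H2 genes among those windows were H2-Eb2, H2-Oa and H2-Ob, all of them class II genes. The windows of the class II genes H2-DMa and H2-DMb1 lacked the pair. Genes without an H2 symbol are not named here.

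The class I windows are shown because the 2 heavy chains share a stretch found in no other gene's window of the set. Capitals mark the longest run of identical bases in H2-K1 (chr17:34000298-34000597, minus strand) and H2-D1 (chr17:35262844-35263143, plus strand), and the Y box core ATTGG on either strand in B2m (chr2:122147437-122147736, plus strand), the light chain of both.
H2-K1: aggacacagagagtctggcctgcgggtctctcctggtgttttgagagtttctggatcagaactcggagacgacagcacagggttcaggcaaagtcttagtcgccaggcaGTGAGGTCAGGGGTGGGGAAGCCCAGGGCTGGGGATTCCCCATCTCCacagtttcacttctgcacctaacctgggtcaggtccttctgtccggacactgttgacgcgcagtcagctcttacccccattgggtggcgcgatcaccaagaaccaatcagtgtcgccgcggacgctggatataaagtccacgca
H2-D1: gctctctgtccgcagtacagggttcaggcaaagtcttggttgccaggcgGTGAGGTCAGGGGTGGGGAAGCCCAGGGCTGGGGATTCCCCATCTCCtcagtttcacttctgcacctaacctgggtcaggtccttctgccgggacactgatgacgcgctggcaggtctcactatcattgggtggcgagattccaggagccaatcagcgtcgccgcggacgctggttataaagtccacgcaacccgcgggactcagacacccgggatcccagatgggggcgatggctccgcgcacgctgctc
B2m: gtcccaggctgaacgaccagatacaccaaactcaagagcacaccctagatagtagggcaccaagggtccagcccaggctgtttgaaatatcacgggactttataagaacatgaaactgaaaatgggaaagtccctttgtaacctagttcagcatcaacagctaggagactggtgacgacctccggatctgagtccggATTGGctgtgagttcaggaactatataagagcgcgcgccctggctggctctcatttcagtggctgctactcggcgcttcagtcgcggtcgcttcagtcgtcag
The shared run has 47 bases and begins at base 110 of the H2-K1 window and base 50 of the H2-D1 window. Of the 32851 windows, searched on both strands, 3 held it, and all of them belong to H2-K1 or H2-D1. ATTGG was found on either strand in the first listed window of 6 of the 7 members, and for H2-DMa in its second window alone. These are matches of letters and show no binding. The likeness of the heavy chain genes also bears on their counts. Reads that fit both H2-K1 and H2-D1, or related H2-Q genes, could have been assigned to either or left uncounted. The labels do not state how such reads were handled. H2-Q6 had 0 counts in every library but 18.2 to 34.9 FPKM (a level per transcript length deposited by the authors). H2-Q7 had 0 to 2 counts but 21.4 to 81.4 FPKM. Counts and FPKM therefore did not treat the reads of these 2 genes alike.

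Compared per transcript length, as FPKM deposited by the authors, the members differed widely in level. B2m, the class I light chain, ranged from 943 to 2269 FPKM over the 10 libraries with a median of 1647, and its lowest library lay above the highest library of any other member. The heavy chains H2-K1 (399 to 882, median 712 FPKM) and H2-D1 (481 to 728, median 645 FPKM) overlapped. Next came Cd74 (76.3 to 431, median 253 FPKM), H2-Ab1 (71.7 to 284, median 189.9 FPKM) and H2-Aa (58.0 to 255, median 157 FPKM), whose ranges overlapped widely. H2-Eb1 followed at 28.8 to 140.0 FPKM (median 82.6). The class II loading genes H2-DMb1 (8.82 to 28.3, median 18.4 FPKM) and H2-DMa (3.97 to 17.8, median 10.8 FPKM) were lower still, and Ciita was lowest, at 0.340 to 1.31 FPKM with a median of 0.786. The H2-Ab1 level lay above the H2-Aa level, and the H2-DMb1 level above the H2-DMa level, in each of the 10 libraries.

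**Figure D1:**
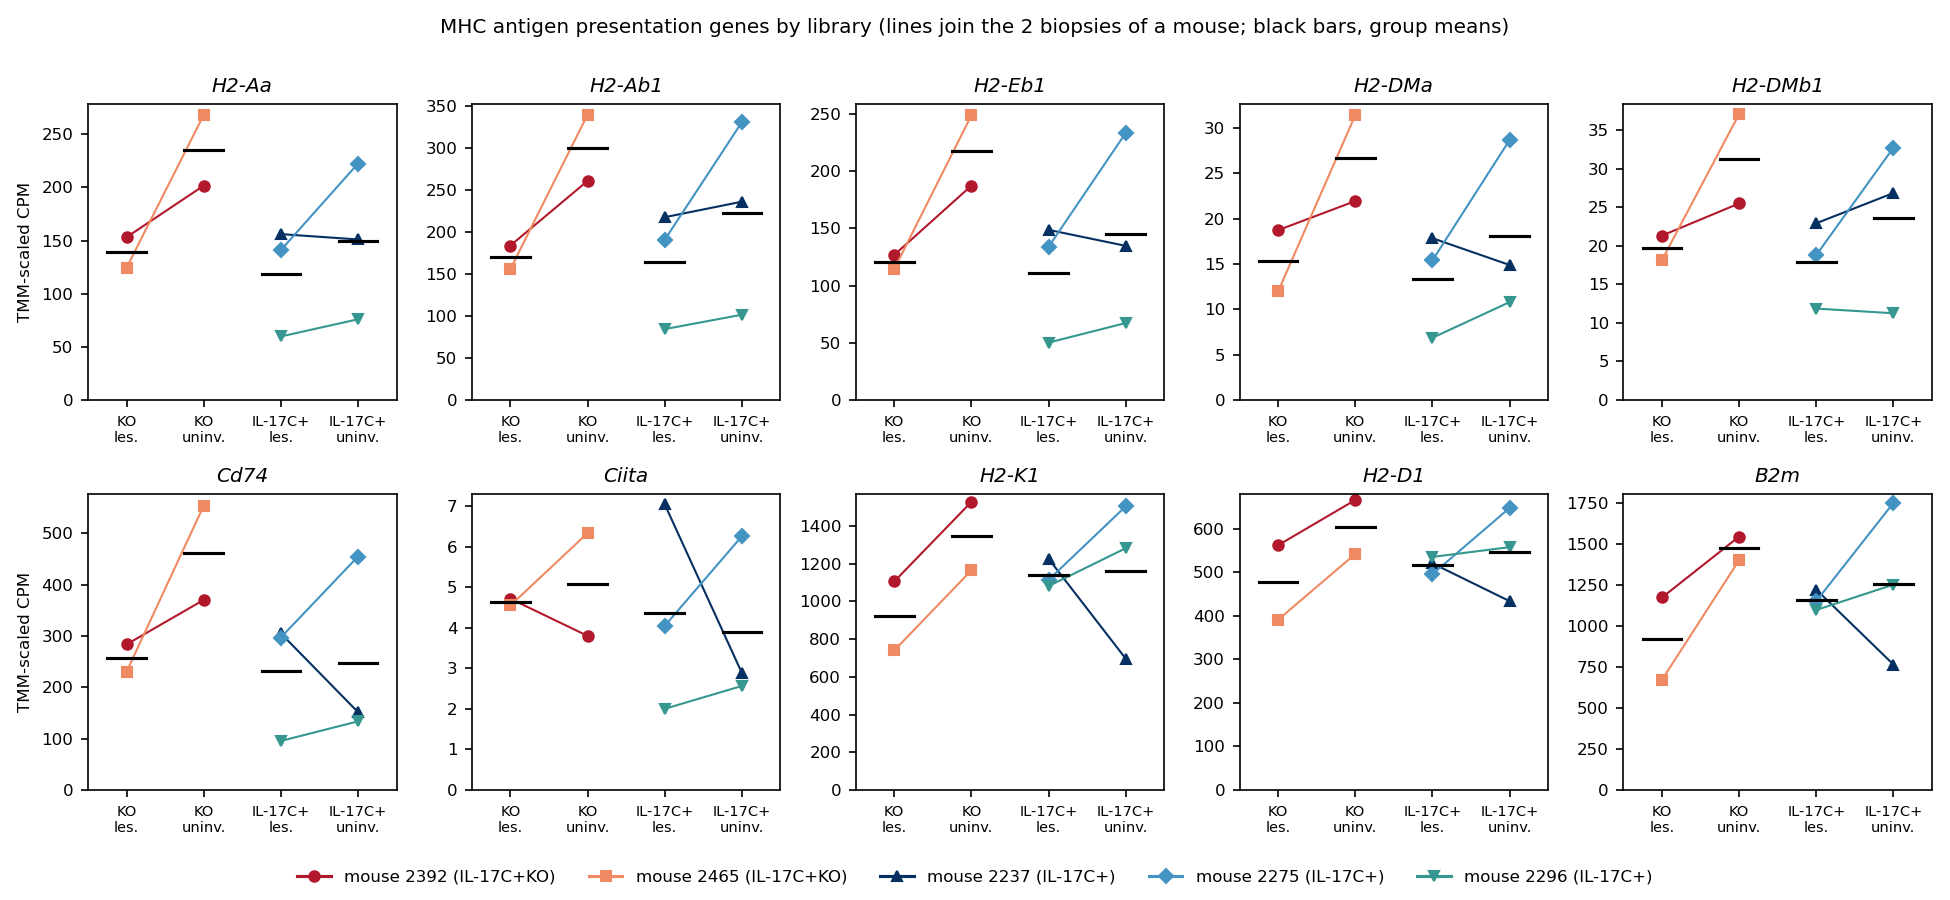
Each panel plots 1 gene, with the level in TMM-scaled CPM on the vertical axis from 0 and the 4 groups on the horizontal axis (KO, IL-17C+KO; les., lesional; uninv., uninvolved). Points are libraries, lines join the 2 biopsies of a mouse and black bars are group means; most lines rise from lesional to uninvolved skin, and those of mouse 2237 (dark blue triangles) mostly run the other way.

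Lesional skin was compared with uninvolved skin of the same mouse to ask whether the MHC genes differ within lesions. No member passed the threshold of an adjusted p of 0.05 over the 5 mice by edgeR, DESeq2 or limma. The 6 class II genes had lower fitted levels in lesional skin, by 0.36 to 0.58 on the log2 scale, the 3 class I genes by 0.18 to 0.32, and Ciita was at 0.02. At an unadjusted p under 0.05 there were 3 members, the class II chains H2-Aa, H2-Ab1 and H2-Eb1, all lower. Across all 16083 genes 8 passed the adjusted threshold (0.0497%), and 21.5% had an unadjusted p under 0.05, 11.5% of genes with a lower level. The median log2 difference over the 10 members was -0.41, beside -0.01 over all genes tested.

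The class II chains form the peptide-binding heterodimers on the cell surface, H2-Aa with H2-Ab1 (the I-A molecule) and H2-Eb1 as the beta chain of I-E, whose alpha partner C57Bl/6 mice do not make. H2-Aa (chr17:34282744-34287823, minus strand) had 153 (2392) and 124 (2465) CPM in lesional skin labelled IL-17C+KO, and 156 (2237), 141 (2275) and 59.8 (2296) CPM in lesional IL-17C+ skin. In uninvolved skin the levels were 202 (2392) and 268 (2465) CPM for IL-17C+KO, and 151 (2237), 222 (2275) and 75.9 (2296) CPM for IL-17C+. Both libraries of mouse 2296 were the lowest of their skin type, and lesional and uninvolved levels overlapped. The lesional mean was 127 ± 39.5 CPM and the uninvolved mean 184 ± 73.5 CPM (SD, n = 5 each). The fitted log2 difference was -0.49 ± 0.20 (SE), with an adjusted p of 0.209 by edgeR's quasi-likelihood test with Benjamini-Hochberg adjustment. The level was lower in lesional skin in 4 of 5 mice.

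H2-Ab1 (chr17:34257689-34269419, plus strand) had 184 (2392) and 156 (2465) CPM in lesional IL-17C+KO skin, and 218 (2237), 191 (2275) and 84.4 (2296) CPM in lesional IL-17C+ skin. Its uninvolved levels were 261 (2392) and 339.8 (2465) CPM for IL-17C+KO, and 236 (2237), 331 (2275) and 102 (2296) CPM for IL-17C+. By log2 CPM it was the only member with a lower level in lesional skin in all 5 mice, a pattern shared by 9.73% of all genes tested. In FPKM, however, H2-Ab1 was higher in the lesion of mouse 2237 (208 against 198). The difference in log2 CPM per mouse was -0.50 (2392), -1.12 (2465), -0.12 (2237), -0.79 (2275) and -0.27 (2296). The fit gave -0.56 ± 0.19 (edgeR quasi-likelihood, Benjamini-Hochberg adjusted p = 0.166), between a lesional mean of 167 ± 50.9 CPM and an uninvolved mean of 254 ± 96.0 CPM (SD, n = 5 each).

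H2-Eb1 (chr17:34305867-34316674, plus strand) had 127 (2392) and 115 (2465) CPM in lesional IL-17C+KO skin, and 149 (2237), 134 (2275) and 50.1 (2296) CPM in lesional IL-17C+ skin. Uninvolved skin held 187 (2392) and 249 (2465) CPM in IL-17C+KO mice, and 135 (2237), 233 (2275) and 67.3 (2296) CPM in IL-17C+ mice. Mouse 2237 alone had the higher level in its lesion. Over 5 mice the log2 difference was -0.55 ± 0.21, with an adjusted p of 0.185 (edgeR quasi-likelihood, Benjamini-Hochberg). Without mouse 2237 it was -0.73 with an adjusted p of 0.0499, the only member called in any fit tried; in that fit 1249 of 15934 genes passed (7.84%), so the call came with a much larger number of calls overall. Annotated antisense Gm20513 overlaps H2-Eb1, and the strand setting of the counting is not given.

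H2-DMa and H2-DMb1 encode the DM heterodimer, which exchanges the invariant chain fragment for peptide in endosomes. H2-DMa (chr17:34119541-34139101) had 18.7 (2392) and 11.99 (2465) CPM in lesional IL-17C+KO skin, and 17.9 (2237), 15.4 (2275) and 6.87 (2296) CPM in lesional IL-17C+ skin. In uninvolved skin it had 21.9 (2392) and 31.4 (2465) CPM in IL-17C+KO mice, and 14.9 (2237), 28.7 (2275) and 10.8 (2296) CPM in IL-17C+ mice. Lesional and uninvolved ranges overlapped, and mouse 2237 again ran against the other 4. The log2 difference was -0.58 ± 0.26 (edgeR quasi-likelihood, Benjamini-Hochberg adjusted p = 0.249), and -0.38 without mouse 2465. Its locus overlaps Brd2 on the other strand, a gene also in the tables, so reads of the pair may not be separated.

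H2-DMb1 (chr17:34153072-34160230) had 21.3 (2392) and 18.1 (2465) CPM in lesional IL-17C+KO skin, and 22.9 (2237), 18.8 (2275) and 11.9 (2296) CPM in lesional IL-17C+ skin. The uninvolved values were 25.5 (2392) and 37.1 (2465) CPM for IL-17C+KO, and 26.8 (2237), 32.7 (2275) and 11.2 (2296) CPM for IL-17C+. Here the exception to the lower lesional level was mouse 2296, by 0.08 on the log2 scale, and not mouse 2237. The fitted difference was -0.45 ± 0.21 (edgeR quasi-likelihood, Benjamini-Hochberg adjusted p = 0.262). Its close copy H2-DMb2 had a log2 difference of -0.50 ± 0.26 and may share reads with it.

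Cd74 is the invariant chain, which guides class II molecules to endosomes and blocks their groove on the way. The gene (chr18:60803848-60812652) had 284 (2392) and 230.3 (2465) CPM in lesional IL-17C+KO skin, and 305 (2237), 297 (2275) and 95.5 (2296) CPM in lesional IL-17C+ skin. Uninvolved levels were 370.2 (2392) and 554 (2465) CPM for IL-17C+KO, and 152 (2237), 455 (2275) and 134 (2296) CPM for IL-17C+. In 4 mice the lesional level was lower, by 0.38 to 1.27 on the log2 scale, whereas in mouse 2237 it was higher by 1.01. The fitted log2 difference was -0.36 ± 0.32 (edgeR quasi-likelihood, Benjamini-Hochberg adjusted p = 0.554), and it was -0.69 without mouse 2237 and -0.13 without mouse 2465.

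Cd74 also set the uninvolved biopsy of mouse 2237 apart from the other libraries. The ratio of Cd74 to H2-Ab1 in FPKM was 0.599 there and 1.06 to 1.52 in the other 9 libraries. Its coefficient of variation over all libraries was 21.1%. The ratios among the class II chains varied less. H2-Aa to H2-Ab1 in FPKM was 0.731 to 0.951, with a coefficient of variation of 7.98%. H2-Eb1 to H2-Ab1 was 0.385 to 0.496, with one of 8.22%. The lowest value of both chain ratios was nevertheless that of the same uninvolved biopsy of mouse 2237. The ratios of H2-DMa (0.0429) and Ciita (0.00244) to H2-Ab1 in FPKM were also lowest there, so the low ratio was not particular to Cd74. Over the same libraries the summed CPM of the 6 class II genes varied 4.79-fold, with a coefficient of variation of 43.6%.

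Ciita, the transactivator (chr16:10480059-10528418), was the scarcest member, with 51 to 234 counts per library. Its level was 4.71 (2392) and 4.55 (2465) CPM in lesional IL-17C+KO skin, and 7.04 (2237), 4.04 (2275) and 2.00 (2296) CPM in lesional IL-17C+ skin. Uninvolved skin had 3.80 (2392) and 6.33 (2465) CPM in IL-17C+KO mice, and 2.89 (2237), 6.25 (2275) and 2.56 (2296) CPM in IL-17C+ mice. The level was lower in the lesions of 3 mice and higher in those of 2392 and 2237, and the fitted log2 difference was 0.02 ± 0.33 (edgeR quasi-likelihood, Benjamini-Hochberg adjusted p = 0.981). It was -0.29 without mouse 2237. Ciita overlaps Dexi on the other strand, so part of its reads may belong to Dexi.

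H2-K1 and H2-D1 are the classical class I heavy chains of this strain, and B2m is the light chain both need to reach the surface. H2-K1 (chr17:33996017-34000347) had 1106 (2392) and 740.1 (2465) CPM in lesional IL-17C+KO skin, and 1226 (2237), 1114 (2275) and 1081 (2296) CPM in lesional IL-17C+ skin. In uninvolved skin the levels were 1528 (2392) and 1165 (2465) CPM for IL-17C+KO, and 697 (2237), 1504 (2275) and 1282 (2296) CPM for IL-17C+. The 3 IL-17C+ lesions were close together, while the uninvolved biopsies of the same mice spread 2.16-fold. In 4 mice the lesional level was lower, by 0.25 to 0.65 on the log2 scale, and in mouse 2237 it was higher by 0.82. The fit gave -0.20 ± 0.26 (edgeR quasi-likelihood, Benjamini-Hochberg adjusted p = 0.693).

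H2-D1 (chr17:35262730-35267499) varied least. It had 562 (2392) and 391 (2465) CPM in lesional IL-17C+KO skin, and 520.2 (2237), 495 (2275) and 535 (2296) CPM in lesional IL-17C+ skin. In uninvolved skin it had 666 (2392) and 542 (2465) CPM in IL-17C+KO mice, and 434 (2237), 647 (2275) and 557 (2296) CPM in IL-17C+ mice. The highest of its 10 libraries was 1.70 times the lowest, and the log2 difference was -0.18 ± 0.19 (edgeR quasi-likelihood, Benjamini-Hochberg adjusted p = 0.618).

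B2m (chr2:122147686-122153083) had 1175 (2392) and 673 (2465) CPM in lesional IL-17C+KO skin, and 1223 (2237), 1153 (2275) and 1099 (2296) CPM in lesional IL-17C+ skin. Uninvolved skin held 1547 (2392) and 1403 (2465) CPM for IL-17C+KO, and 766 (2237), 1752 (2275) and 1253 (2296) CPM for IL-17C+. The lesion of mouse 2465 and the uninvolved biopsy of mouse 2237 were the lowest of their skin types, as they were for H2-K1 and H2-D1. The log2 difference was -0.32 ± 0.28 (edgeR quasi-likelihood, Benjamini-Hochberg adjusted p = 0.550). The class I estimates depended on single mice. Without mouse 2237 they were -0.45 for H2-K1, -0.29 for H2-D1 and -0.56 for B2m, and without mouse 2465 they were -0.088 for H2-K1, -0.11 for H2-D1 and -0.13 for B2m. Patl2 overlaps the B2m locus on the other strand.

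**Figure D2:**
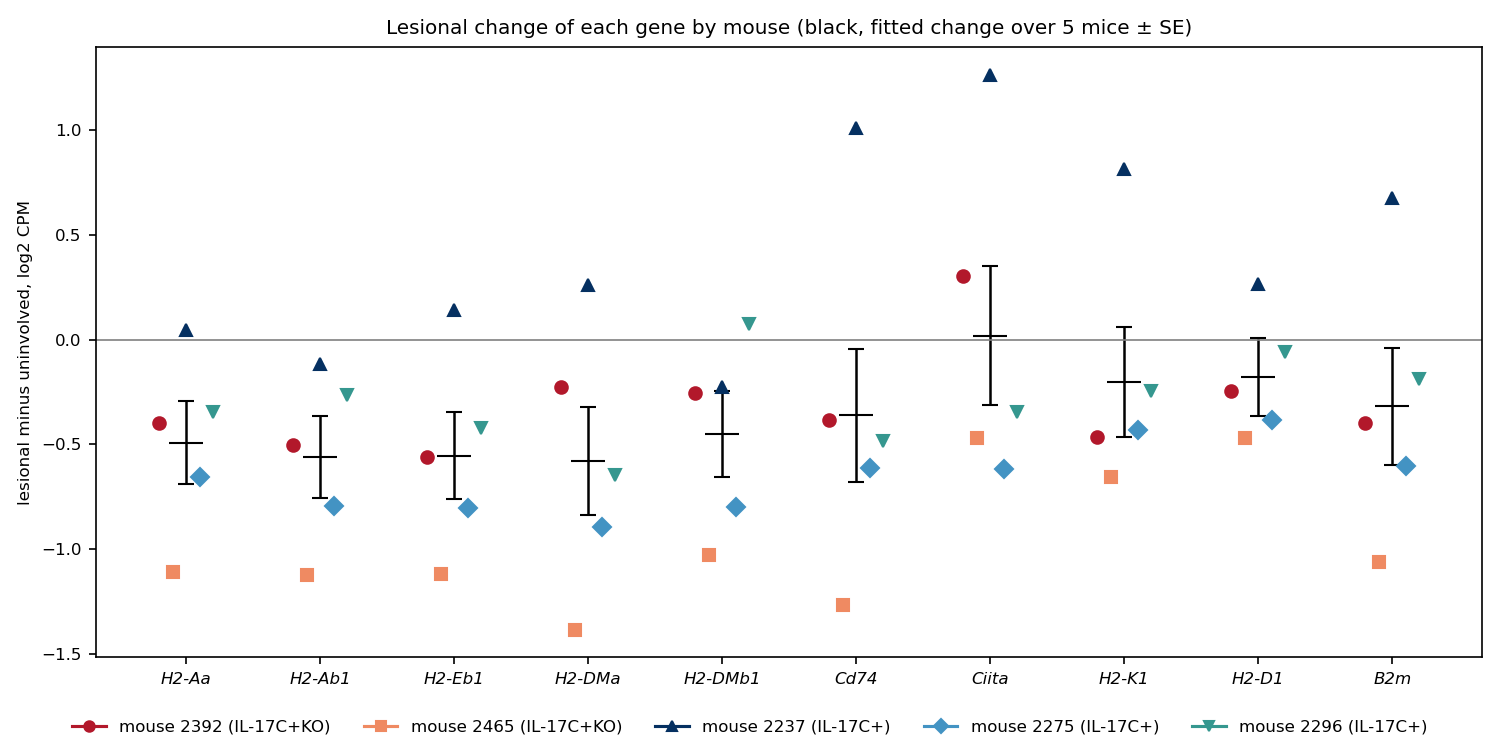
Lesional minus uninvolved log2 CPM (vertical axis) is plotted for each of the 10 genes (horizontal axis), with 1 coloured point per mouse and the fitted difference over 5 mice in black with its standard error. Mouse 2465 gave the lowest point for every gene but Ciita, and mouse 2237 the highest for every gene but H2-DMb1, with Ciita at 1.26, Cd74 at 1.01 and H2-K1 at 0.82.

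Seen by mouse, 9 of the 10 members were lower in lesional skin in at least 4 of 5 mice, which held for 32.1% of all genes tested. None was higher in all 5. The summed class II level in lesional against uninvolved skin was 788 against 1068 CPM in mouse 2392, 655 against 1479 CPM in mouse 2465, 868 against 715 CPM in mouse 2237, 797 against 1303 CPM in mouse 2275 and 309 against 401 CPM in mouse 2296. The lesional over uninvolved ratio was therefore 0.443 to 0.770 in 4 mice and 1.21 in mouse 2237. In that mouse Il17c took no larger share of counts in lesional skin, as given above, and the summed neutrophil markers were 2199 CPM in lesional and 2091 CPM in uninvolved skin. The single markers were not alike there. S100a8 and S100a9 were higher in the lesion by 0.07 and 0.06 on the log2 scale, and Retnlg, Csf3r and Cxcr2 by 1.22, 0.69 and 0.51. In the other 4 mice the summed neutrophil markers were 2282 to 12561 CPM in lesional skin and 60.0 to 2431 CPM in uninvolved skin. The part of these values in the difference between mice was not tested.

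Within each genotype label the same contrast was read separately. In mice labelled IL-17C+KO, 9 members were lower in both lesions, where 34.5% of all genes tested were, and all 10 had negative fitted differences, with a median of -0.74 beside 0.00 over all genes. The log2 difference was -0.84 ± 0.34 for H2-Eb1 (adjusted p = 0.355) and -0.81 ± 0.33 for H2-Ab1 (adjusted p = 0.356) by edgeR's quasi-likelihood test with Benjamini-Hochberg adjustment, and those 2 members had an unadjusted p under 0.05. Without mouse 2465, H2-Ab1 was at -0.50. No member passed the adjusted threshold by edgeR, DESeq2 or limma, and 2 genes of the whole table did by edgeR (0.0124%), with 13.5% at an unadjusted p under 0.05. In IL-17C+ mice the 6 class II members had log2 differences of -0.43 to -0.04, H2-K1 was at 0.04, H2-D1 at -0.06, B2m at -0.04 and Ciita at 0.09. None had an unadjusted p under 0.05, beside 6.41% of all genes, and no gene passed the adjusted threshold (0%).

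The difference between the lesional changes in the 2 genotypes was tested directly. All 10 estimates were negative, from -0.78 ± 0.63 for Cd74 to -0.18 ± 0.74 for Ciita on the log2 scale, and every adjusted p was 1 (edgeR quasi-likelihood, Benjamini-Hochberg). Unadjusted p-values of the members ran from 0.257 to 0.816, none under 0.05, where 1.17% of all genes were and 0% passed the adjusted threshold. The standard errors of the members were 0.42 to 0.74.

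Genotypes were then compared within each skin type, 1 library per mouse. In lesional skin the 6 class II members were 0.08 to 0.25 higher on the log2 scale in IL-17C+KO than in IL-17C+ libraries, and the 3 class I members 0.09 to 0.30 lower. In each case the 2 groups overlapped. H2-K1 averaged 923 ± 258 CPM in IL-17C+KO lesions (SD, n = 2) and 1140.2 ± 76.0 CPM in IL-17C+ lesions (SD, n = 3). Adjusted p-values by edgeR's quasi-likelihood test with Benjamini-Hochberg adjustment were 0.866 to 0.985, and no member had an unadjusted p under 0.05, beside 7.3% of 15691 genes tested; 0% passed the adjusted threshold.

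In uninvolved skin all 10 members were higher in IL-17C+KO than in IL-17C+ libraries. The largest estimate was for Cd74, which averaged 462 ± 129.7 CPM in IL-17C+KO skin (SD, n = 2) and 247 ± 180.3 CPM in IL-17C+ skin (SD, n = 3), a log2 difference of 0.91 ± 0.59. It was 1.70 without mouse 2275 and 0.59 without mouse 2465. The other class II members differed by 0.41 to 0.65, Ciita by 0.38 and the class I members by 0.16 to 0.24. The groups overlapped for every member, with the uninvolved biopsy of mouse 2275 above the lower of the 2 IL-17C+KO values each time. Adjusted p-values were 0.849 to 0.919 (edgeR quasi-likelihood, Benjamini-Hochberg). None had an unadjusted p under 0.05, beside 3.73% of 15568 genes, and 0% passed the adjusted threshold. Without mouse 2275, 4 members had an unadjusted p under 0.05, beside 15.8% of 15367 genes in that fit, where 241 genes (1.57%) passed the adjusted threshold. The smallest adjusted p among members was then 0.0881, for Cd74 (edgeR quasi-likelihood, Benjamini-Hochberg).

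The members moved in 2 blocks over the 10 libraries. Among the 6 class II genes, Pearson's r of log2 CPM was 0.827 to 0.994 over 15 pairs (median 0.956), and among the 3 class I genes 0.939 to 0.961. Between the blocks it was 0.112 to 0.556 over 18 pairs. Ciita correlated at 0.733 to 0.882 with the class II genes and at 0.140 to 0.327 with the class I genes. These coefficients describe 10 libraries from 5 mice, in which all genes of a library share its depth and its cells, and no test was made of them.

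**Figure D3:**
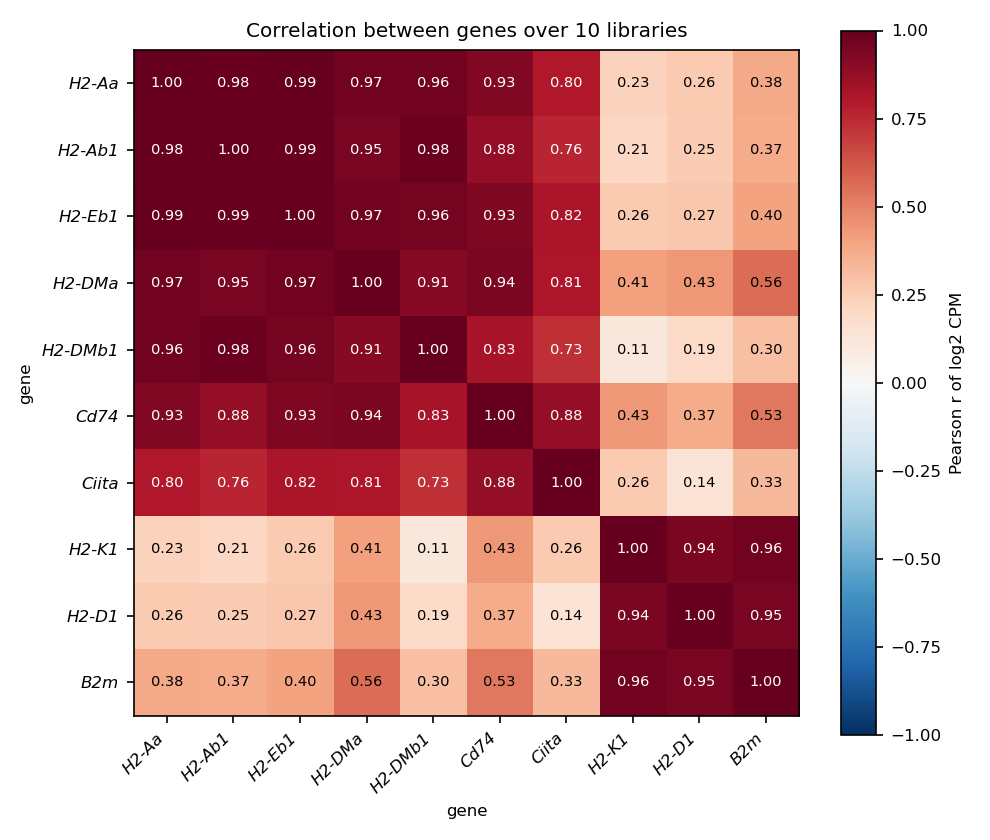
Heat map of Pearson's r of log2 CPM between the 10 genes (both axes) over 10 libraries, with r printed in each cell and a colour scale from -1 to 1. The 6 class II genes form a block of high r with Ciita beside it at 0.73 to 0.88, and the 3 class I genes form a second block.

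Mouse 2296 showed the separation of the blocks most plainly. Its summed class I level per class II level was 8.80 in lesional and 7.72 in uninvolved skin, while the other 8 libraries lay between 2.10 and 3.61. Its class II sums, 309 and 401 CPM, were the lowest of their skin types, whereas its class I sums of 2715 CPM in lesional and 3093 CPM in uninvolved skin were inside the range of the other mice. Both biopsies of the animal had the pattern.

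The 8 genes outside the members whose levels followed the class II mean most closely, among 12895 ranked, were Msrb3 (r = 0.968), H2-M2 (0.954), Nbn (0.953), Grb14 (0.946), Bcl2 (0.935), Fgf11 (0.928), Zbtb12 (0.922) and Mob3b (0.918). For the class I mean they were H2-Q2 (0.978), Wnt7b (0.974), H2-Q1 (0.971), H2-Bl (0.963), Mknk2 (0.944), Acacb (0.934), Slc52a3 (0.934) and Cebpa (0.931), each over 10 libraries. H2-Q2, H2-Q1 and H2-Bl are class I genes that may share reads with H2-K1 and H2-D1. Nlrc5, the class I transactivator, correlated with the class I mean at 0.896. It had 39.6 (2392) and 26.4 (2465) CPM in lesional IL-17C+KO skin, and 52.7 (2237), 46.1 (2275) and 27.7 (2296) CPM in lesional IL-17C+ skin. Its uninvolved levels were 61.6 (2392) and 49.5 (2465) CPM for IL-17C+KO, and 19.4 (2237), 75.2 (2275) and 60.7 (2296) CPM for IL-17C+. As for the class I genes, its lesional level was lower in 4 mice and higher in mouse 2237.

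The rest of the pathway was read from 5 lists of genes for lesional against uninvolved skin in the 5 mice. No gene of these lists passed the adjusted threshold (edgeR quasi-likelihood, Benjamini-Hochberg). Of 18 other class II pathway genes, 12 had higher and 6 lower estimates (median 0.11). Beside 21.5% of all genes tested, 2 of the 18 had an unadjusted p under 0.05. Those were the endosomal proteases Ctss (0.84 ± 0.23 on the log2 scale, adjusted p = 0.123), which degrades the invariant chain, and Lgmn (0.69 ± 0.24, adjusted p = 0.162). They were higher in the lesions of all 5 mice, as were 9.13% of all genes tested, the opposite direction from the class II chains. Ctss had 173 (2392) and 100.4 (2465) CPM in lesional IL-17C+KO skin and 107 (2237), 76.2 (2275) and 117 (2296) CPM in lesional IL-17C+ skin. Uninvolved skin had 62.0 (2392) and 81.7 (2465) CPM for IL-17C+KO and 54.8 (2237), 66.6 (2275) and 48.7 (2296) CPM for IL-17C+. Only mouse 2275's lesion lay within the uninvolved range. The related protease Ctsl was at 0.49 ± 0.23.

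Among 14 genes of class I peptide loading and regulation, 4 had higher and 10 lower estimates (median -0.11). The endoplasmic reticulum chaperones Calr (0.78 ± 0.26, adjusted p = 0.151), Canx (0.46 ± 0.17, adjusted p = 0.176) and Pdia3 (0.70 ± 0.29, adjusted p = 0.218), which also serve other glycoproteins, had higher estimates. The immunoproteasome subunit Psmb9, which shapes peptides for class I, was lower in the lesions of all 5 mice (-0.76 ± 0.26, edgeR quasi-likelihood with Benjamini-Hochberg adjusted p = 0.158), as were 9.73% of all genes tested. In the same list Psme1 was also lower in all 5 by CPM, but in FPKM it was higher in the lesion of mouse 2392 (147 against 132). Psmb8 was higher in the lesion of 1 mouse and Psmb10 in those of 2. Lesional levels of Psmb9 were 22.4 (2392) and 12.6 (2465) CPM for IL-17C+KO and 21.7 (2237), 17.8 (2275) and 16.4 (2296) CPM for IL-17C+. Its uninvolved levels were 26.5 (2392) and 37.1 (2465) CPM for IL-17C+KO and 35.8 (2237), 41.3 (2275) and 17.1 (2296) CPM for IL-17C+. The ranges overlapped through the low uninvolved biopsy of mouse 2296.

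Of 14 non-classical and other class I genes, 12 were tested, with 2 higher and 10 lower estimates (median -0.29). H2-Q6 and H2-Q7, with 0 to 2 counts per library, were not tested. H2-T10 (-0.69 ± 0.18, adjusted p = 0.118), H2-T22 (-0.37 ± 0.24, adjusted p = 0.414) and Mr1, which presents vitamin B metabolites (-0.43 ± 0.17, adjusted p = 0.198), were lower in the lesions of all 5 mice, as were 9.73% of all genes tested (edgeR quasi-likelihood, Benjamini-Hochberg). H2-T22 had 33 to 78 counts per library, and in FPKM it was higher in the lesion of mouse 2237 (15.6 against 13.9). Mr1 in FPKM was higher in the lesion of mouse 2392 (5.30 against 5.24). In interferon gamma signalling, 13 of 15 genes were tested, with 8 higher and 5 lower estimates (median 0.05). Socs1, a feedback inhibitor of the pathway, was at 0.73 ± 0.25 (adjusted p = 0.163) and the receptor chain Ifngr1 at -0.50 ± 0.22 (adjusted p = 0.254; edgeR quasi-likelihood, Benjamini-Hochberg). Ifng itself had 0 to 6 counts per library and was not tested. All 6 tested genes of 9 costimulation and checkpoint ligands had higher estimates (median 0.31). Cd80, a ligand of CD28, had 3.02 (2392) and 4.06 (2465) CPM in lesional IL-17C+KO skin and 1.595 (2237), 1.67 (2275) and 4.51 (2296) CPM in lesional IL-17C+ skin. Its uninvolved levels were 1.21 (2392) and 0.768 (2465) CPM for IL-17C+KO and 0.990 (2237), 0.478 (2275) and 0.395 (2296) CPM for IL-17C+. Every lesion lay above every uninvolved biopsy, with a log2 difference of 1.90 ± 0.43 and an adjusted p of 0.0992 (edgeR quasi-likelihood, Benjamini-Hochberg). How many genes separate in this way was not counted. A higher level in the lesions of all 5 mice, as for Cd80, was found for 9.13% of all genes tested.

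**Figure D4:**
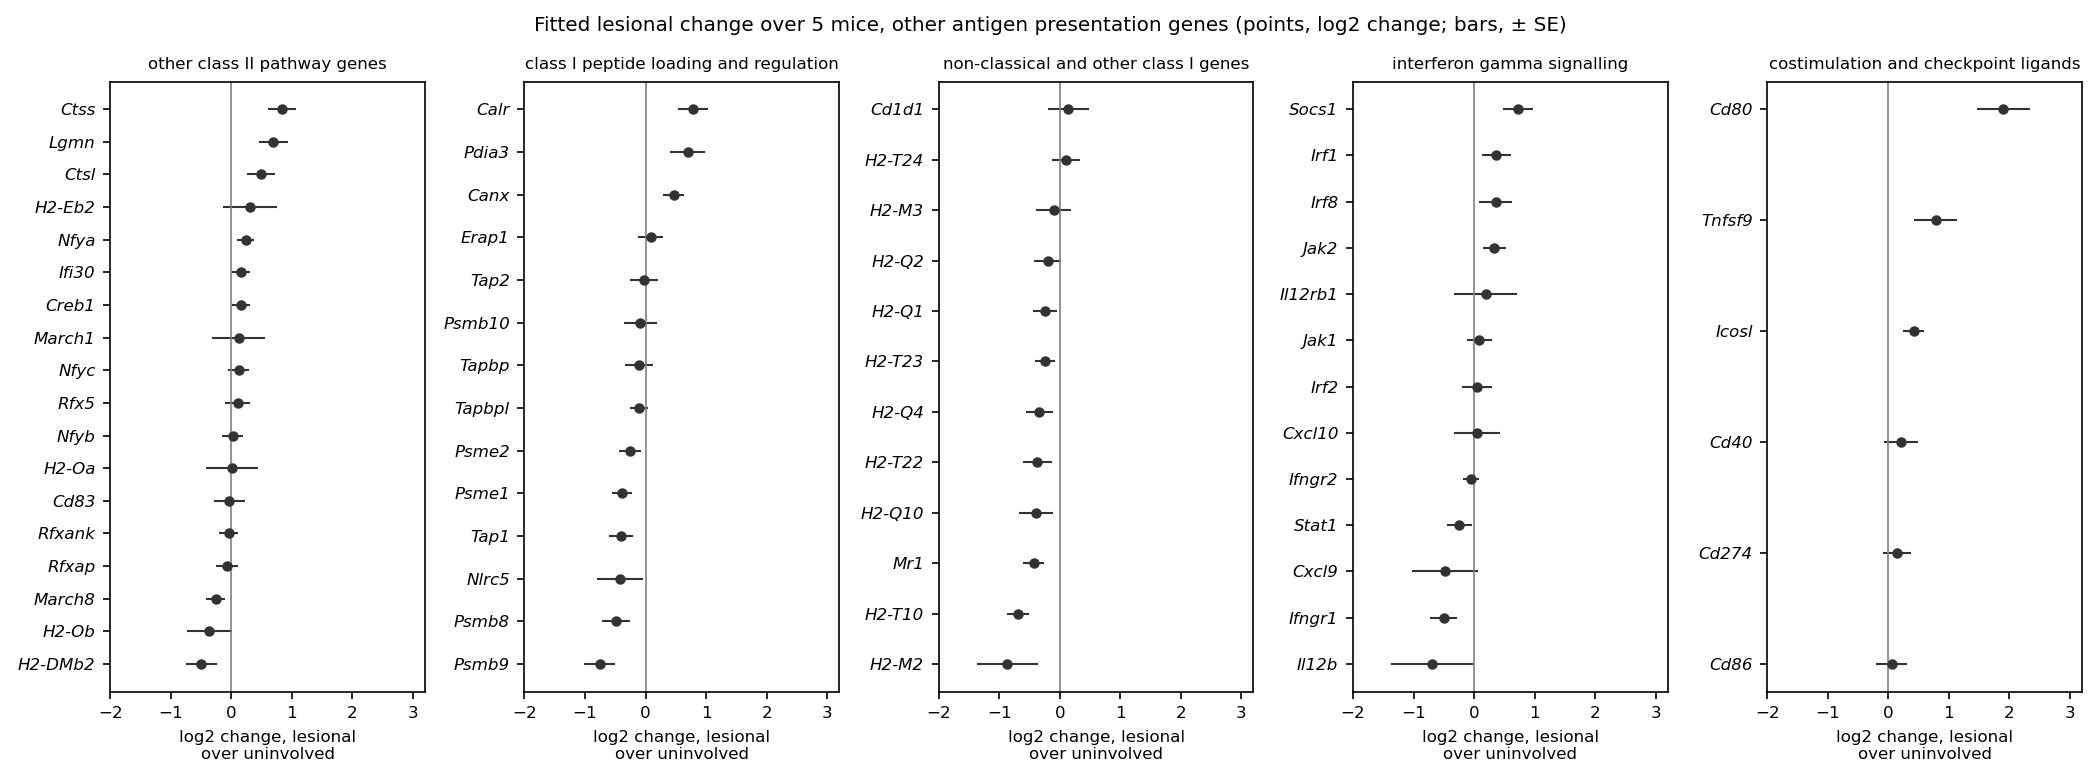
Fitted log2 differences between lesional and uninvolved skin over 5 mice (horizontal axis) for the tested genes of 5 lists, 1 panel per list and 1 gene per line, with bars of ± 1 standard error. Ctss (0.84) and Lgmn (0.69) lie at the top of the class II panel, Calr (0.78) and Psmb9 (-0.76) at the ends of the class I loading panel, and Cd80 (1.90) lies farthest from 0.

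Markers of the cells that carry class II molecules did not share 1 direction. In full-thickness biopsies, fewer cells of a type and less RNA per cell cannot be told apart. All 5 pan-leukocyte markers (Ptprc, Coro1a, Laptm5, Cd53 and Rac2) had higher estimates in lesional skin and an unadjusted p under 0.05, beside 21.5% of all genes tested. Their summed level was 318 to 421 CPM in lesional and 144 to 189 CPM in uninvolved IL-17C+KO skin, and 151 to 292 CPM in lesional and 88.1 to 145 CPM in uninvolved IL-17C+ skin. Of 10 tested macrophage and monocyte markers 9 had higher estimates, but their summed level was higher in the lesions of 2 mice only. In lesional against uninvolved skin it was 1756 against 642 CPM in mouse 2392 and 1006 against 475 CPM in mouse 2296, whereas it was 749 against 966 CPM in mouse 2465, 673 against 708 CPM in mouse 2237 and 485 against 622 CPM in mouse 2275. Of 12 dendritic and Langerhans cell markers 4 had higher and 8 lower estimates, with sums of 209 to 301 CPM in lesional and 269.7 to 370.4 CPM in uninvolved IL-17C+KO skin, and 249 to 311 CPM in lesional and 254 to 325 CPM in uninvolved IL-17C+ skin. Epcam, which epithelial cells of the skin also express, made up 120.5 to 271 CPM of these sums. B cell markers summed to 1.34 to 4.33 CPM over the 10 libraries, and Pax5 had 1 count in 1 library and 0 in the other 9.

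The ratio of class II to pan-leukocyte transcripts was lower in the lesion of every mouse. Its denominator was higher in all 5 lesions, and in mouse 2237 its numerator was higher as well. The summed class II level per summed pan-leukocyte level was 1.87 against 7.44 in uninvolved skin of mouse 2392, 2.06 against 7.80 in mouse 2465, 5.40 against 7.17 in mouse 2237, 5.27 against 8.99 in mouse 2275 and 1.06 against 4.55 in mouse 2296. In 3 mice the lesional ratio was 0.232 to 0.264 of the uninvolved one, and in mice 2237 and 2275 it was 0.753 and 0.587 of it. Neutrophils also express the pan-leukocyte genes, and the summed neutrophil markers given above were higher in the lesion of each mouse. Their part in the ratio was not tested. The ratio was chosen after the values were seen and has no test.

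**Figure D5:**
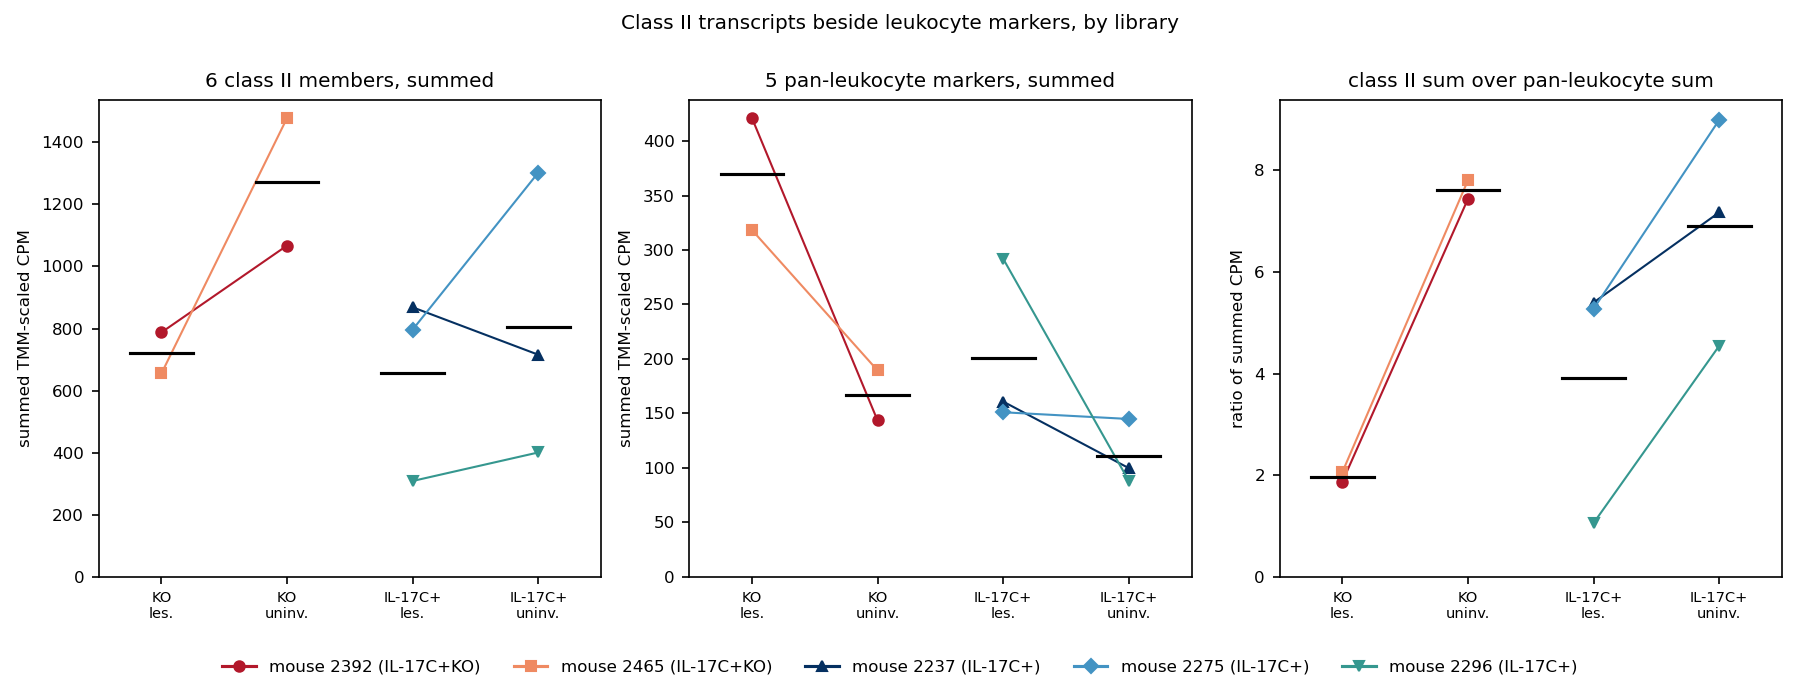
Summed TMM-scaled CPM of the 6 class II genes (left), of 5 pan-leukocyte markers (middle) and their ratio (right) for the 4 groups; lines join the biopsies of a mouse and black bars are group means. The ratio is lower in lesional than in uninvolved skin for all 5 mice, down to 1.06 in mouse 2296.

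Within the dendritic and Langerhans list the markers went both ways. Itgax, an integrin of dendritic cells and other myeloid cells (1.06 ± 0.36 on the log2 scale, adjusted p = 0.158), the growth factor receptor Flt3 (0.98 ± 0.24, adjusted p = 0.109) and the migration receptor Ccr7 (1.06 ± 0.34, adjusted p = 0.149) had higher estimates by edgeR's quasi-likelihood test with Benjamini-Hochberg adjustment and were higher in the lesions of all 5 mice. The same direction in all 5 mice was found for 9.13% of all genes tested. Zbtb46, a factor of classical dendritic cells, was at -0.16 ± 0.28. Cd207, the Langerhans cell lectin langerin, was the 1 marker of the list with a lower level at an unadjusted p under 0.05. Itgax, Flt3 and Ccr7 were higher at that threshold, which 21.5% of all genes tested passed in either direction. Cd207 had 15.4 (2392) and 10.4 (2465) CPM in lesional IL-17C+KO skin and 11.0 (2237), 6.65 (2275) and 2.79 (2296) CPM in lesional IL-17C+ skin. In uninvolved skin it had 23.8 (2392) and 21.5 (2465) CPM for IL-17C+KO and 16.8 (2237), 31.4 (2275) and 11.0 (2296) CPM for IL-17C+. Like 9.73% of all genes tested, it was lower in the lesion of every mouse, by 0.61 to 2.23 on the log2 scale. The fitted difference was -1.29 ± 0.30 (edgeR quasi-likelihood, Benjamini-Hochberg adjusted p = 0.103). T cell markers had 1 higher and 7 lower estimates of 8. The higher 1 was Cd4, by 0.22 to 1.40 on the log2 scale in the lesions of all 5 mice. All 8 skeletal muscle markers had lower and all 6 fibroblast markers higher estimates in lesional skin, and none passed the adjusted threshold (smallest adjusted p 0.0634 for muscle and 0.0683 for fibroblast markers; edgeR quasi-likelihood, Benjamini-Hochberg). Muscle sums were 506 to 3402 CPM in lesional and 21626 to 35468 CPM in uninvolved IL-17C+KO skin, and 2338 to 5033 CPM in lesional and 5772 to 25644 CPM in uninvolved IL-17C+ skin. The part of these cell types in the levels of the members was not tested.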

How the data were processed

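Per the submitters' processing notes, the tools were Cufflinks 2.2.1, HTSeq, TopHat2 2.0.12 and cutadapt 1.6 and the build mm10. The sources used here do not give their order, settings, annotation, strand setting or treatment of multiply mapped reads. The deposited tables hold, per the file headers, a count for each gene, taken as raw counts because they are whole numbers with a different total in each library. They also hold FPKM values that the authors normalised to length and depth, used here to compare genes and for 1 alternative test. Depth was 21056850 to 31072491 counts per library; intervals and floors cover counting error only.

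Counts were tested in R 4.3.3 with edgeR 4.0.16 (filterByExpr, TMM, robust quasi-likelihood F tests, Benjamini-Hochberg threshold 0.05 over all genes tested). Lesional and uninvolved skin were compared in all 10 libraries with the mouse as block; genotypes were compared within each skin type, 1 library per mouse. Log2 CPM used a prior count of 2. DESeq2 1.42.0 and limma 3.58.1 (on log2 of FPKM plus a pseudocount of 1), other size factors, no filter, no block and leaving out each mouse were alternatives. The edgeR fits were also run on simulated counts with known changes, for some of the comparisons. The simulation set its own spread and mouse effect, so it gives no error rate for these data. The mouse numbers in the labels pair the biopsies; deviations of paired libraries from their group means correlated at -0.12 to 0.03 (Pearson's r over 16083 genes), so the pairing rests on the design and not on the values.

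The members and gene lists were chosen with earlier results of these data known. All 10 members are named, up to 4 genes per pathway list by smallest p, the first 3 markers of a list, and the 8 non-member genes with the highest Pearson's r to each block (at least 2 CPM, established symbols). Cd4, Cd53, Rac2, Ccr7, Cd207, Epcam, Pax5, Ifng, Nlrc5, Csf3r, Retnlg, H2-Q6, H2-Q7, Psme1, Psmb8 and Psmb10 were named outside that rule, after their values were seen. Replicates are separate mice. Coordinates are from GENCODE (GRCm38), promoter sequences from RefSeq (GRCm38.p6).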

Additional observations from a re-analysis of the deposited data

Results flagged for a closer look

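Among 40 groups of 5 values examined (each member and ratio in lesional and in uninvolved libraries, and each difference per mouse), 8 held a value whose gap to its nearest neighbour was over 0.71 of the group's range. Chance gives about 1 such value in 20 independent groups. These groups reuse the same libraries and hold correlated genes, so that rate cannot be set against the 8. In the lesion of mouse 2296 (IL-17C+), log2 CPM was 5.90 for H2-Aa, against 6.96 to 7.29 in the other 4 lesions. For H2-Eb1 it was 5.65, against 6.84 to 7.22, and for Cd74 it was 6.58, against 7.85 to 8.25. The class I level per class II level of that mouse was 8.80 in lesional skin, against 2.75 to 3.61 in the other lesions, and 7.72 in uninvolved skin, against 2.10 to 3.504 in the other uninvolved biopsies. In the lesion of mouse 2465 (labelled IL-17C+KO), log2 CPM was 9.53 for H2-K1, against 10.08 to 10.26 in the other lesions, and 9.40 for B2m, against 10.10 to 10.26. The H2-K1 difference between lesional and uninvolved skin was 0.82 on the log2 scale in mouse 2237 and -0.65 to -0.25 in the other 4 mice.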

How the results depend on the processing

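Of 580 values of members recomputed under the alternatives, 544 kept their direction and side of the threshold, 35 changed sign and 1 was newly called (H2-Eb1 without mouse 2237). Ciita had the lowest depth, with 51 to 234 counts per library. The number of genes called depended strongly on the tool. For lesional against uninvolved skin in all mice it was 8, against 15 with no filter, 2036 with DESeq2, 1006 with no replicate block and 0 to 1249 without single mice (0 to 1 members). In IL-17C+ mice DESeq2 called 247, against 0. In IL-17C+KO mice the count was 2, against 5 with no filter, 1157 with DESeq2, 1 with limma on FPKM, 0 with no replicate block and 0 to 11 without single mice. For the difference between the lesional changes DESeq2 called 6, against 0. Between genotypes, lesional skin gave 0, against 1 with no filter and 213 with DESeq2, and uninvolved skin gave 0, against 11 with DESeq2 and 0 to 241 without single mice. The cause of these differences was not tested.

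Leaving out 1 mouse moved the estimate by over 1.5 times, or turned its sign, for 6 of 10 members over all mice, 7 in IL-17C+KO mice and all 10 in each of the other 4 comparisons. The sign turned in the following. In IL-17C+ mice, limma on FPKM gave 0.083 for Cd74, 0.056 for H2-D1 and 0.071 for B2m, and the fit with no replicate block gave -0.026 for H2-K1. In IL-17C+KO mice limma gave 0.028 for Ciita. Without single mice, Ciita ran from -0.29 to 0.18 over all mice. In IL-17C+ mice the range was -0.55 to 0.26 for Cd74, -0.50 to 0.49 for Ciita, -0.34 to 0.29 for H2-K1, -0.22 to 0.11 for H2-D1 and -0.40 to 0.25 for B2m. In IL-17C+KO mice it was -0.48 to 0.31 for Ciita. For the difference between the lesional changes it was -0.96 to 0.20 for H2-DMa, -0.72 to 0.060 for H2-DMb1 and -0.59 to 0.41 for Ciita. Between genotypes in lesional skin it was -0.10 to 0.49 for H2-Aa, -0.27 to 0.33 for H2-Ab1, -0.23 to 0.41 for H2-Eb1, -0.13 to 0.49 for H2-DMa, -0.081 to 0.39 for H2-DMb1, -0.23 to 0.41 for Cd74, -0.26 to 0.64 for Ciita, -0.37 to 0.12 for H2-D1 and -0.75 to 0.019 for B2m. In uninvolved skin it was -0.032 to 0.90 for Ciita, -0.053 to 0.46 for H2-K1, -0.0092 to 0.30 for H2-D1 and -0.030 to 0.56 for B2m. Dropping the replicate block called no member.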
